A study of Mus musculus with 4 samples.

Results

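Il1a, Il1b, Il6, Il10, Il11, Il17a, Tnf, Ifng, Ptgs2 and Nos2 encode inflammatory cytokines and the inducible enzymes that make prostaglandins and nitric oxide. They were chosen by name from the probe annotation, 10 genes of the 22180 measured, and each was read by 1 probe set. The samples were whole stomach tissue of FVB mice aged 1 year, 2 from Hdc-/- and 2 from Hdc+/+ animals, and no other allele or treatment was labelled. Hdc encodes histidine decarboxylase, the enzyme that forms histamine, and the Hdc-/- mice lack a functional copy throughout the body. Each sample was hybridised to 1 Affymetrix array, on which a value is the log2 of a probe set's normalised brightness. All differences are Hdc-/- minus Hdc+/+ on the log2 scale with n = 2 arrays per group, and an SE is limma's moderated standard error. The labels number the arrays within each genotype as biological repeats and name no separate animals. Each p-value therefore rests on the spread between these samples, which limma pools with a prior drawn from all genes.

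Interleukin 1 and tumour necrosis factor are early cytokines of innate immunity, released mainly by macrophages and related cells. Through their receptors they activate the transcription factor NF-kappaB, which in turn induces Il6, Ptgs2, Nos2 and further cytokine genes. T cells add interferon gamma and interleukin 17, and interleukin 10 restrains the response. In the stomach, histamine is best known for driving acid secretion, and this set of cytokines is known for its part in gastritis and gastric tumours.

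Gastric gland transcripts read high, and all 13 gastric gland markers (among them Atp4a, Muc5ac and Gkn2) read above the array's gene median on all 4 arrays. The gene medians ran from 4.56 to 4.60. The gastric gland markers had a median difference of 0.01, with 7 positive and 6 negative. Their smallest p were those of Cblif (1.07, SE 0.25, limma adjusted p = 0.396) and Pga5 (1.70, SE 0.64, limma adjusted p = 0.563). Hdc read 3.77 and 4.06 on Hdc-/- arrays 1 and 2, against 3.99 and 3.82 on Hdc+/+ arrays 1 and 2, so it gave no check of the labels, and whether its probes lie in the deleted part was not settled here. A pair of arrays stood apart. Hdc-/- array 1 had a mean of 6.59 over 11 mast cell markers, against 4.56 to 4.92 on the others. Hdc+/+ array 2 had a mean of 8.73 over 8 pancreatic acinar markers, against 4.47 to 4.73 on the others. Hepatocyte markers averaged 4.51 and 4.65 on the Hdc-/- arrays, against 7.79 and 9.74 on the Hdc+/+ arrays. The median list differences were -4.04 for 12 hepatocyte, -1.07 for 12 intestinal, -1.56 for 8 pancreatic, -1.495 for 7 adipocyte and -0.68 for 10 forestomach squamous markers. In whole tissue, fewer cells of a type and less RNA per cell cannot be told apart.

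The cytokine and enzyme genes read low in both genotypes, and none differed between them by limma. Of the 10 genes, 9 lay below the gene median on every array, and Ptgs2 lay above it on Hdc-/- array 2 alone. Their median stood below the array's gene median by a log2 difference of -0.71 on both Hdc-/- arrays, against -0.96 and -0.87 on Hdc+/+ arrays 1 and 2. Limma with Benjamini-Hochberg adjustment called 0 of the 10 in either direction, where 0.00451% of all genes were called higher and 0% lower. Without adjustment, limma put 0 of the 10 under a p of 0.05, where 3.68% of all genes were higher and 4.87% lower. The differences ran from -0.13 (Il6) to 0.38 (Il1b). Their median was 0.12, against 0.02 over all genes, and 7 of the 10 were positive, against 54.1% of all genes. The Hdc-/- arrays lay entirely above the Hdc+/+ arrays for 4 genes, Il1b, Nos2, Tnf and Ifng, and entirely below for 0, where 21.5% of all genes were entirely higher and 17.6% entirely lower. With 2 arrays against 2, the smallest two-sided p of an exact permutation test is 0.333.

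**Figure D1:**
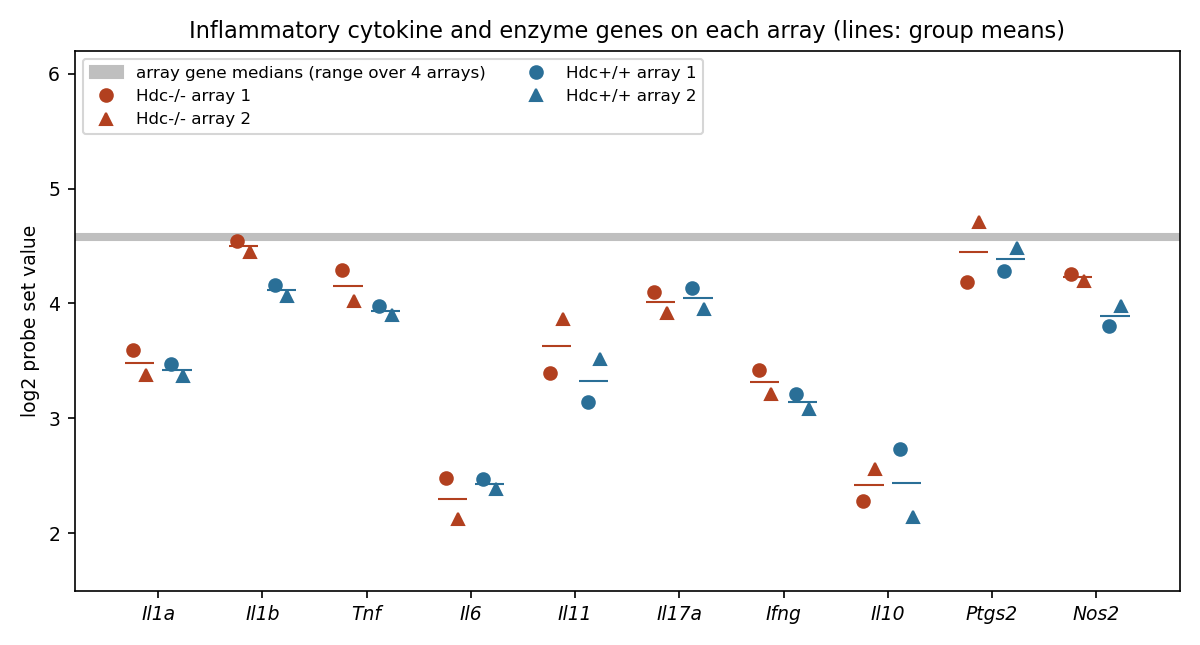
Log2 probe set value (vertical axis) of each cytokine or enzyme gene on Hdc-/- arrays (red, left of each pair) and Hdc+/+ arrays (blue), with circles for array 1, triangles for array 2, short lines for group means and a grey band for the gene medians of the 4 arrays. All points but that of Ptgs2 on Hdc-/- array 2 lie below the band, and the red points lie above the blue ones for Il1b, Nos2, Tnf and Ifng.

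To show where probe sets of genes with no known role in the stomach read, 17 retina and sperm genes were set beside them. Of these, 15 lay below the gene median on all 4 arrays, and 1, the sperm tail gene Odf1, read between 10.8 and 11.3. The list's median stood at -1.10 and -0.88 from the gene median on Hdc-/- arrays 1 and 2, against -0.81 and -1.14 on Hdc+/+ arrays 1 and 2. The medians of the cytokine and enzyme genes on the same arrays lay between -0.96 and -0.71. No background values were used here, so whether a given cytokine was above background could not be set. Probe sets differ in how brightly they respond, so these positions do not rank the amounts of RNA of different genes.

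Il1b encodes interleukin 1 beta, which is made as an inactive precursor and cut by caspase 1. It read 4.54 and 4.45 on Hdc-/- arrays 1 and 2, against 4.16 and 4.07 on Hdc+/+ arrays 1 and 2. Both Hdc-/- values were higher than both Hdc+/+ values, and arrays of a genotype differed by 0.09 at most. The difference was 0.38 (SE 0.16, 95% interval -0.02 to 0.78), or 1.30-fold, the largest of the 10, and it did not pass (limma adjusted p = 0.594). With 1 array left out at a time it ran from 0.34 to 0.43. Il1a, the neighbouring gene of interleukin 1 alpha, which is active without cleavage and is known as a signal from dying cells, read 3.60 and 3.38 on the Hdc-/- arrays, against 3.47 and 3.37 on the Hdc+/+ arrays. These groups overlapped, and the difference of 0.06 (SE 0.17, limma adjusted p = 0.961) was -0.047 without Hdc-/- array 1.

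Tnf encodes tumour necrosis factor, a membrane protein that the protease Adam17 sheds. It read 4.29 and 4.02 on Hdc-/- arrays 1 and 2, against 3.98 and 3.90 on Hdc+/+ arrays 1 and 2. The groups did not overlap, but the lower Hdc-/- array lay closer to Hdc+/+ array 1 than to the other Hdc-/- array. The difference was 0.22 (SE 0.18, 95% interval -0.22 to 0.66, limma adjusted p = 0.786), and it was 0.08 without Hdc-/- array 1.

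The sequence before the starts of these genes was searched for motifs of inducible promoters and for the TATA box. RefSeq promoter windows (assembly GRCm38.p6, of C57BL/6J rather than FVB mice) were matched for 8 of the 10 genes, all but Il10 and Nos2. The 250 bases before each annotated start were searched on both strands for 4 motifs. The AP-1 motif was TGANTCA, where N is any base, and 6.75% of the same windows of all 32851 annotated starts held it. The TATA box was TATAAA, held by 12.4% of the windows. The core of the cyclic AMP response element was ACGTCA, held by 6.47%. An NF-kappaB type motif was held by 4.11%, and its match is the last run of capitals in the Il6 window. It was written with fixed letters at both ends, and inside with any base at some positions and a fixed T at others. A site with another base at a fixed position could not match, so its share and gene count hold for that pattern only. The TATA box letters stood in 5 of the 8 genes (Il1a, Il1b, Il17a, Tnf and Ifng), the AP-1 letters in 4 (Il1a, Il6, Il11 and Il17a), the response element core in 2 (Il6 and Il17a) and the NF-kappaB letters in 1 (Il6). The window of Ptgs2 held none of the 4. The printed runs are those of Il1b, Tnf and Ifng, the genes with a window whose groups did not overlap, and of Il6, the gene with the NF-kappaB letters. They end at the first base before the annotated gene. For Il1b that is 25 bases short of the start used in the search, so its TATA box letters stand at the end of the run and 25 bases before that start. Capitals mark the matches, none of which overlap, and a match describes letters only, not a bound site.
Il1b (chr2:129371165-129371389, minus strand, 225 bases): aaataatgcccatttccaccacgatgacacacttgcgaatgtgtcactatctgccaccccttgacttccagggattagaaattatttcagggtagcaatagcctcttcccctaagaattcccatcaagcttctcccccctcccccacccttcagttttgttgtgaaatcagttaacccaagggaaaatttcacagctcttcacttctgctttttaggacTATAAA
Tnf (chr17:35202008-35202257, minus strand, 250 bases): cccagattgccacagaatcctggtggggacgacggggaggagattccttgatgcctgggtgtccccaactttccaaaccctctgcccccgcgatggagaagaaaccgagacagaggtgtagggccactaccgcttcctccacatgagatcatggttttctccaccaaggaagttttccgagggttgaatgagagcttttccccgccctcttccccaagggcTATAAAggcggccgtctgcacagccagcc
Ifng (chr10:118440796-118441045, plus strand, 250 bases): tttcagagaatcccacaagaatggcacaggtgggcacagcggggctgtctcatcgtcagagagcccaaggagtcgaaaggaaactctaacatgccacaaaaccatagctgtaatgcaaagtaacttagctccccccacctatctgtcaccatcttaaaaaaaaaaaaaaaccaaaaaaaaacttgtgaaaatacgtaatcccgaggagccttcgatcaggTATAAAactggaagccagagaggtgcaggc
Il6 (chr5:30012864-30013113, plus strand, 250 bases): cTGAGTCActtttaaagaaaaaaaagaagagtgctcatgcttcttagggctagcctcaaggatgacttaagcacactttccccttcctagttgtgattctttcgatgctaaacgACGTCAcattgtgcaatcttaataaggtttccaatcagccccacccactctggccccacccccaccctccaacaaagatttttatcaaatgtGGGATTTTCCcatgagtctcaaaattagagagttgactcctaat

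Il6 encodes interleukin 6, which signals through gp130 (gene Il6st) to Stat3. It read 2.48 and 2.12 on Hdc-/- arrays 1 and 2, against 2.47 and 2.39 on Hdc+/+ arrays 1 and 2, at percentiles of 6.35 to 10.8 among the genes of the array. The groups overlapped, since Hdc-/- array 1 gave the highest and Hdc-/- array 2 the lowest value. The difference was -0.13 (SE 0.19, 95% interval -0.60 to 0.34, limma adjusted p = 0.899), and it was 0.048 without Hdc-/- array 2. Il11 encodes interleukin 11, which shares gp130 and is known for driving gastric tumour growth in mice. It read 3.39 and 3.86 on the Hdc-/- arrays, against 3.14 and 3.52 on the Hdc+/+ arrays. Both genotypes spanned a similar distance and overlapped, with a difference of 0.30 (SE 0.24, 95% interval -0.29 to 0.89, limma adjusted p = 0.781). It was 0.06 without Hdc-/- array 2 and 0.53 without Hdc-/- array 1. For Il11 the upper bound allowed a 1.85-fold higher brightness, the widest of the set in that direction. It does not bound the change in RNA, since no background values were used.

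The cytokines of lymphocytes also read below the gene median on every array. Ifng encodes interferon gamma, the main macrophage-activating product of T helper 1 and natural killer cells. It read 3.43 and 3.212 on Hdc-/- arrays 1 and 2, against 3.209 and 3.08 on Hdc+/+ arrays 1 and 2. The separation between the groups was thus far smaller than the spread within either, and the difference of 0.17 (SE 0.17, 95% interval -0.26 to 0.60) did not pass (limma adjusted p = 0.838). Il17a encodes interleukin 17A, which acts on epithelium to draw in neutrophils. It read 4.10 and 3.92 on the Hdc-/- arrays, against 4.14 and 3.95 on the Hdc+/+ arrays, a difference of -0.03 (SE 0.17, 95% interval -0.47 to 0.40, limma adjusted p = 0.982). The arrays interleaved, and the sign turned without Hdc-/- array 2 (0.057) or without Hdc+/+ array 1 (0.059). Il10 encodes interleukin 10, which restrains macrophages and T cells. It read 2.28 and 2.56 on the Hdc-/- arrays, against 2.73 and 2.14 on the Hdc+/+ arrays. The Hdc+/+ arrays enclosed the Hdc-/- arrays, and the difference of -0.02 had the largest SE of the set (0.25, 95% interval -0.64 to 0.60, limma adjusted p = 0.994). It was 0.12 without Hdc-/- array 1 and 0.28 without Hdc+/+ array 1.

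Among the inducible enzymes, Nos2 encodes the nitric oxide synthase of activated macrophages and epithelium. It read 4.25 and 4.20 on Hdc-/- arrays 1 and 2, against 3.80 and 3.98 on Hdc+/+ arrays 1 and 2. The Hdc-/- arrays lay close together and above both Hdc+/+ arrays, with a difference of 0.34 (SE 0.16, 95% interval -0.07 to 0.75), or 1.26-fold, that did not pass (limma adjusted p = 0.633). It ran from 0.25 to 0.42 with 1 array left out at a time. Ptgs2 encodes cyclooxygenase 2, which makes the precursor of prostaglandins and is induced in gastritis and gastric tumours. It read 4.18 and 4.71 on the Hdc-/- arrays, against 4.28 and 4.49 on the Hdc+/+ arrays. The Hdc-/- arrays enclosed the Hdc+/+ arrays, and the difference was 0.06 (SE 0.23, 95% interval -0.51 to 0.63, limma adjusted p = 0.974). It was -0.20 without Hdc-/- array 2 and -0.04 without Hdc+/+ array 1. Over all 10 genes the spread between the arrays of 1 genotype exceeded the difference between genotypes for 8, the exceptions being Il1b and Nos2. The 95% intervals of the 10 genes together reached from 0.641-fold to 1.85-fold in brightness, and each included no difference.

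**Figure D2:**
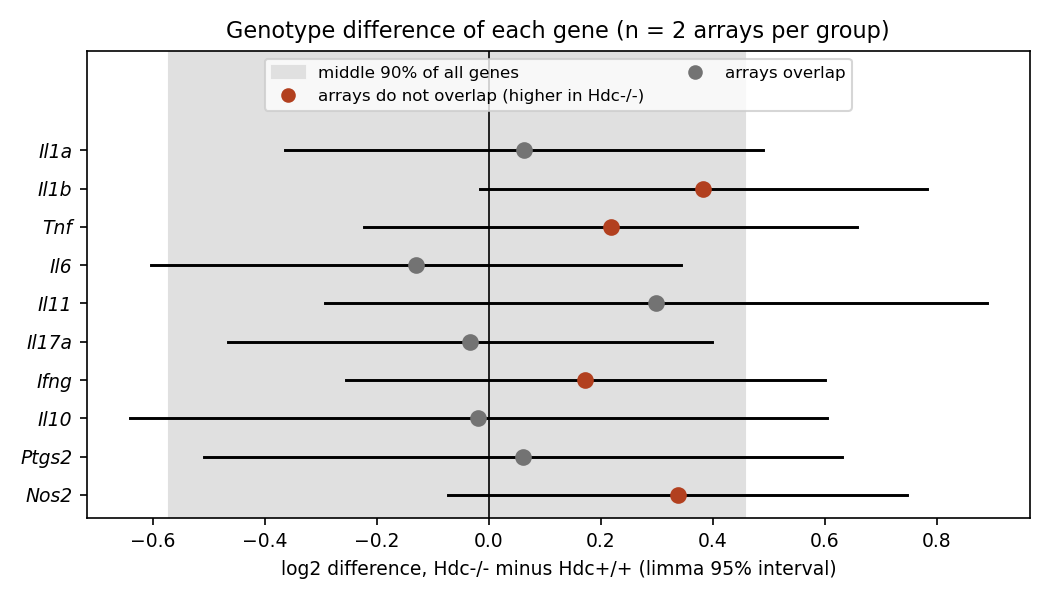
Log2 difference, Hdc-/- minus Hdc+/+ (horizontal axis), of each gene with limma's 95% interval, red where the arrays of the groups did not overlap and grey where they did, over a shaded band that holds the middle 90% of the differences of all genes (-0.57 to 0.46). Every interval includes 0, and every point lies inside the band, with Il1b the highest at 0.38.

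Most receptor chains for these cytokines read above the gene median. Of 13 receptor chains considered, 12 were measured, all but Il11ra1, a chain of the interleukin 11 receptor. Of these 12, 10 lay above the gene median on all 4 arrays, against 0 of the 10 cytokine and enzyme genes. Probe sets differ in how brightly they respond, so this contrast does not rank amounts of RNA. Ifngr1 and Ifngr2, the chains of the interferon gamma receptor, had percentiles of 95.9 to 97.8, and Il6st had 96.2 to 96.7. The exceptions were Il10ra, a chain found on white blood cells, and Il1rap, the accessory chain of the interleukin 1 receptor. Limma called 0 of the 12 chains. Without adjustment 3 fell under a p of 0.05, all lower in Hdc-/-, where all genes gave 3.68% higher and 4.87% lower. The arrays lay entirely higher in Hdc-/- for 2 chains and entirely lower for 4, where all genes gave 21.5% and 17.6%. Il1rap read 4.05 and 4.18 on the Hdc-/- arrays, against 4.81 and 5.11 on the Hdc+/+ arrays, a difference of -0.84 (SE 0.18, limma adjusted p = 0.359). Il10rb, the shared chain of the interleukin 10 and interleukin 22 receptors, differed by -0.51 (SE 0.17, limma adjusted p = 0.492), and Ifngr1 by -0.48 (SE 0.18, limma adjusted p = 0.565). Il1r1, the signalling chain for interleukin 1, overlapped between groups at 6.32 and 6.49 on the Hdc-/- arrays, against 6.37 and 6.62 on the Hdc+/+ arrays.

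**Figure D3:**
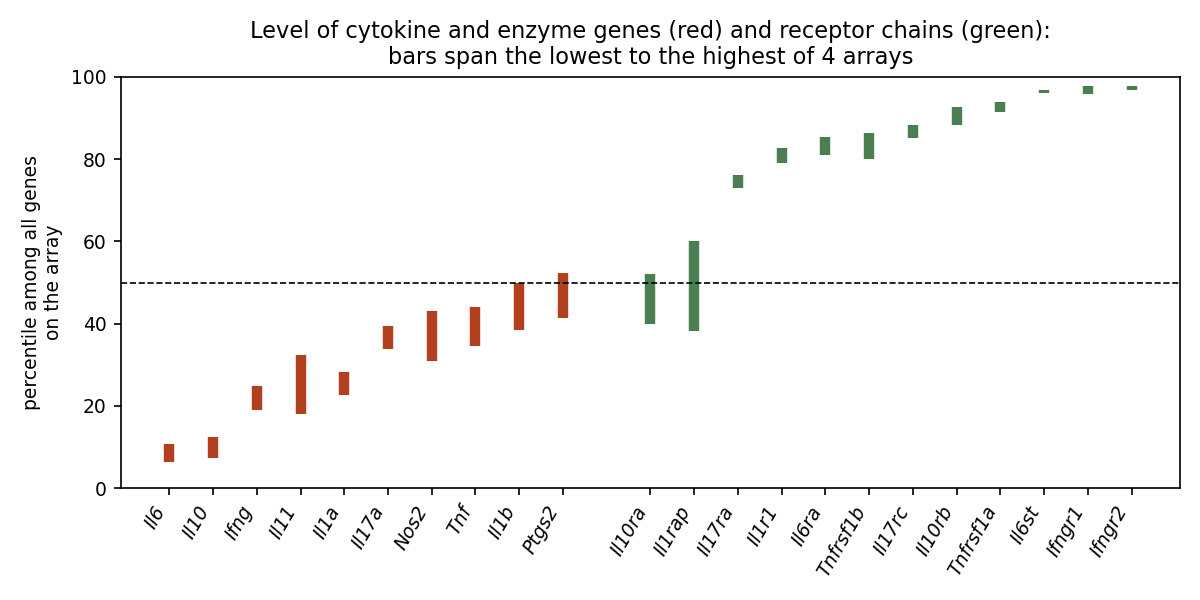
Percentile among all genes on the array (vertical axis, dashed line at 50) of the cytokine and enzyme genes (red) and of the measured receptor chains (green), each bar running from the lowest to the highest of the 4 arrays. The red bars end at or below a percentile of 52.3, while 10 of the 12 green bars lie wholly above the line. The order of bars, within a colour or between colours, is no order of RNA amounts.

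The wider pathways were described by 9 lists with 112 measured genes, of which limma called 0. The shares of all genes to read the counts against are 21.5% entirely higher and 17.6% entirely lower. Without adjustment 8 higher and 12 lower genes of the 112 had a p under 0.05, where all genes gave 3.68% and 4.87%. The interleukin 1 list had a median difference of -0.14 over 13 genes, which was -0.0012 without Hdc-/- array 1 and -0.033 without Hdc+/+ array 1, with 2 genes entirely higher and 3 entirely lower. Its genes with the smallest p all had lower values in Hdc-/-, namely Il1rap, the inflammasome adaptor gene Pycard (-0.65, SE 0.22, limma adjusted p = 0.513) and Il33, an alarmin of barrier epithelium (-1.31, SE 0.62, limma adjusted p = 0.626). Hepatocyte and forestomach squamous markers were lower in Hdc-/- too (median list differences -4.04 and -0.68). The part of these tissues in the values of Il1rap, Pycard and Il33 was not tested. Il33 read 7.87 and 5.95 on the Hdc-/- arrays, against 8.53 and 7.92 on the Hdc+/+ arrays, and its difference was -0.36 without Hdc-/- array 2. Il1rn, the natural antagonist of the receptor, was singled out after its values were seen. It read 6.04 and 5.23 on the Hdc-/- arrays, against 4.87 and 5.14 on the Hdc+/+ arrays, with a difference of 0.63 that was 0.22 without Hdc-/- array 1.

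The list of tumour necrosis factor receptors and NF-kappaB regulators had a median of 0.13 over 16 genes, which was -0.0080 without Hdc-/- array 2, with 6 genes entirely higher and 4 entirely lower. Adam17, the enzyme that sheds the cytokine, differed by -0.63 (SE 0.19, limma adjusted p = 0.483). Zfp36, whose protein destabilises Tnf messenger RNA, differed by -0.51 (SE 0.16, limma adjusted p = 0.487), and the inhibitor gene Nfkbie by 0.53 (SE 0.18, limma adjusted p = 0.522). The interleukin 6 and 11 signalling list had a median of 0.01 and a mean of -0.04 over 11 genes, and its smallest p were those of Jak2 (-0.37), Socs3 (-0.26), a feedback inhibitor induced by Stat3, and Lifr (-0.24). None of the genes in that list reached an unadjusted p under 0.05. The interleukin 10 list (8 genes) had a median of 0.03 and a mean of -0.03, with Il10rb, Il19 (-0.38) and Il20 (0.30) first by p. The interleukin 17 list (13 genes) had a median of 0.02 and a mean of -0.07. There Il17b, a family member expressed outside lymphocytes, read 2.95 and 3.25 on the Hdc-/- arrays, against 4.17 and 4.16 on the Hdc+/+ arrays, a difference of -1.07 (SE 0.18) that did not pass (limma adjusted p = 0.279). Il17rb (0.32) and Il23a (-0.27) followed.

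The interferon gamma list (13 genes, median 0.17, 5 entirely higher and 1 entirely lower) was led by Ido1, an interferon-induced enzyme that degrades tryptophan. Ido1 read 5.97 and 5.53 on the Hdc-/- arrays, against 4.76 and 4.74 on the Hdc+/+ arrays, a log2 difference of 1.00 (SE 0.20) that did not pass (limma adjusted p = 0.333). Ifngr1 and the feedback inhibitor Socs1 (0.36, SE 0.21) followed. The prostanoid list had a median of -0.044 over 14 genes, which was 0.012 without Hdc+/+ array 1, with 1 gene entirely higher and 4 entirely lower. Hpgd, which inactivates prostaglandins, differed by -0.56 (SE 0.16, limma adjusted p = 0.456) and Ptger3, a prostaglandin E2 receptor, by -0.91 (SE 0.29, limma adjusted p = 0.491). Pla2g4a, whose product releases the arachidonic acid that Ptgs2 converts, read 8.74 and 7.08 on the Hdc-/- arrays, against 6.46 and 6.37 on the Hdc+/+ arrays. Its difference of 1.49 (SE 0.52, limma adjusted p = 0.531) was 0.66 without Hdc-/- array 1, the array with high mast cell markers, whose part in it was not tested.

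Beside Nos2, the nitric oxide and arginine list (11 genes) had a median of 0.08 and a mean of -0.13. Gch1, the first enzyme in making the synthase's cofactor tetrahydrobiopterin, read 5.72 and 5.57 on the Hdc-/- arrays, against 6.77 and 6.78 on the Hdc+/+ arrays. Its difference of -1.14 (SE 0.16) stood far outside the spread within genotypes and did not pass over all genes (limma adjusted p = 0.253). Pts, the next enzyme of that route, differed by 0.71 (SE 0.17, limma adjusted p = 0.396), and the arginine transporter gene Slc7a1 by 0.73 (SE 0.18, limma adjusted p = 0.396). Arg1, which competes with nitric oxide synthase for arginine and was singled out after its values were seen, read 5.27 and 4.67 on the Hdc-/- arrays, against 5.67 and 7.33 on the Hdc+/+ arrays. It is also a liver enzyme, and it was highest on Hdc+/+ array 2, as hepatocyte markers were (a mean of 9.74). The part of liver tissue in it was not tested.

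**Figure D4:**
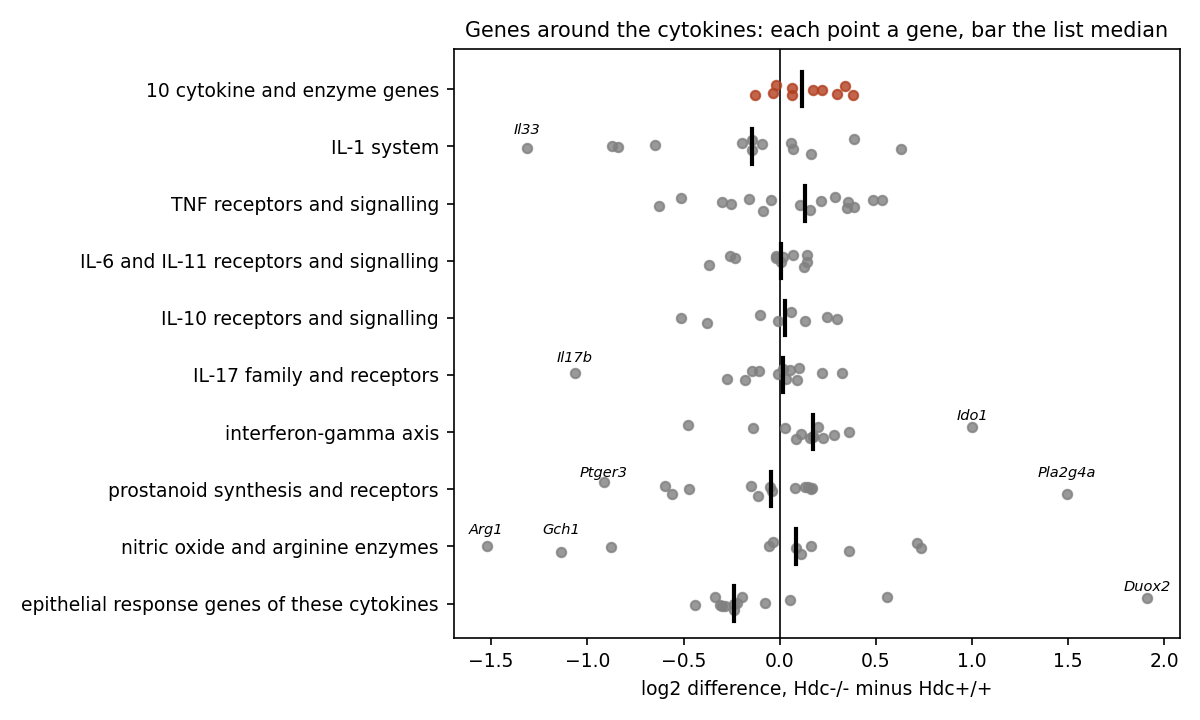
Log2 difference, Hdc-/- minus Hdc+/+ (horizontal axis), of each measured gene in the set and in the 9 pathway lists, 1 point per gene with random vertical jitter, a bar for the list median and names for points with an absolute difference of at least 0.9. The 10 cytokine and enzyme genes (red) lie between -0.13 and 0.38, while the farthest pathway genes are Arg1 at -1.52 and Duox2 at 1.91.

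Among 13 genes that epithelium and stroma are known to switch on in response to these cytokines, 10 had a negative and 3 a positive difference. The median was -0.24, or -0.054 without Hdc-/- array 1, and the mean was -0.0090. The arrays lay entirely higher in Hdc-/- for 2 genes and entirely lower for 2, where all genes gave 21.5% and 17.6%. Limma called 0, while 2 higher genes and 0 lower ones had an unadjusted p under 0.05, where all genes gave 3.68% and 4.87%. Among antimicrobial and neutrophil-attracting genes, S100a8 (-0.33, SE 0.18), Lcn2 (-0.28, SE 0.22) and Cxcl1 (-0.20, SE 0.19) were singled out after their values were seen. Their differences were negative and did not pass (limma adjusted p = 0.655, 0.777 and 0.827, in that order). The groups overlapped for Lcn2 and Cxcl1. S100a8, whose groups did not overlap, is also among the neutrophil markers. It read low, at 2.10 and 2.23 on the Hdc-/- arrays, against 2.63 and 2.37 on the Hdc+/+ arrays, a mean percentile of 8.87. Cxcl5, of the same kind, had a positive difference (0.05, SE 0.18) and overlapped. The genes with the smallest p were Duox2, an epithelial oxidase (1.91, SE 0.56, limma adjusted p = 0.464), the monocyte attractant Ccl2 (0.56, SE 0.20, limma adjusted p = 0.542) and Ccl20 (-0.44, SE 0.18, limma adjusted p = 0.585). Duox2 read 9.47 and 7.65 on the Hdc-/- arrays, against 6.67 and 6.63 on the Hdc+/+ arrays, and its difference was 1.00 without Hdc-/- array 1.

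Markers of the cells that make these cytokines were read on the same arrays. The 15 macrophage and monocyte markers had a median difference of 0.31, which was 0.15 without Hdc-/- array 2 and 0.16 without Hdc+/+ array 1. Of these markers 10 had a positive and 5 a negative difference. The arrays lay entirely higher for 7 and entirely lower for 2, where all genes gave 21.5% and 17.6%. At an unadjusted p under 0.05 there were 5 higher and 0 lower, where all genes gave 3.68% and 4.87%, and limma called 0. Their log2 summed level was 10.07 and 10.20 on the Hdc-/- arrays, against 9.56 and 9.88 on the Hdc+/+ arrays, and no marker read below 3.95. Tyrobp (0.85, SE 0.16) and Adgre1, which encodes the macrophage surface protein F4/80 (0.66, SE 0.16), had the smallest p. The groups separated in the same direction for the summed level of this list as for Il1b, Tnf and Nos2. The summed levels of the T and NK cell and neutrophil lists, given below, separated in that direction too. The part of macrophage number in the values of Il1b, Tnf and Nos2 was not tested. The 14 T and NK cell markers had a median of 0.15, which was 0.24 without Hdc+/+ array 1. Of them 10 had a positive and 4 a negative difference. The arrays lay entirely higher for 6 and entirely lower for 0, where all genes gave 21.5% and 17.6%. At an unadjusted p under 0.05 there were 3 higher and 0 lower, where all genes gave 3.68% and 4.87%, and limma called 0. Cd3e (0.83, limma adjusted p = 0.502) and Cd3g (1.08, limma adjusted p = 0.540) had the smallest p. Without Hdc+/+ array 1 they were 0.51 and 0.53. Of the cytokines of these cells, Ifng was entirely higher in Hdc-/- by a narrow gap and Il17a overlapped, and the part of T cell number in those values was not tested. Their log2 summed level was 8.50 and 8.53 on the Hdc-/- arrays, against 8.09 and 8.29 on the Hdc+/+ arrays, with no marker below 2.50. The 13 neutrophil markers had a median of -0.06 and a mean of 0.10, with 2 entirely higher (Ltf at 1.15 and Retnlg at 1.58) and 4 entirely lower. Of these neutrophil markers 3 had a positive and 10 a negative difference. Their log2 summed level, in which the brightest markers weigh most, was 7.90 and 7.91 on the Hdc-/- arrays, against 7.70 and 7.66 on the Hdc+/+ arrays. The 7 B and plasma cell markers had a median of -0.16 and a mean of 0.18, led by Pou2af1 (0.45) and Ms4a1 (-0.92). The 11 mast cell markers, led by Kit (0.74) and Mcpt1 (3.50), had a median of 0.58 that was -0.22 without Hdc-/- array 1.

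**Figure D5:**
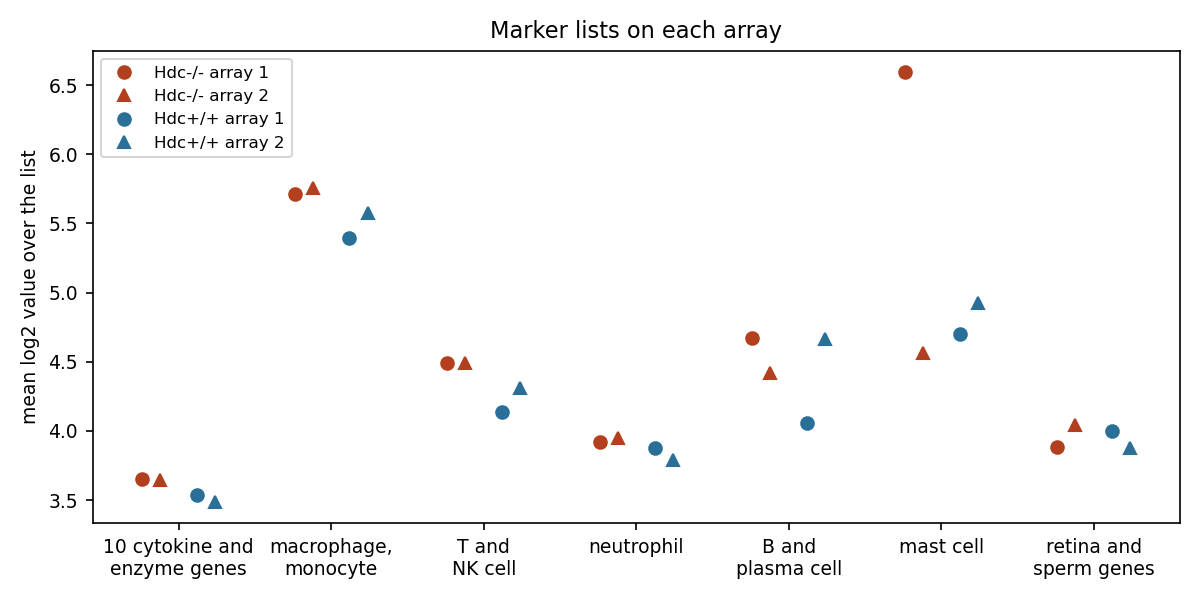
Mean log2 value over each gene list (vertical axis) on Hdc-/- arrays (red, left) and Hdc+/+ arrays (blue), circles for array 1 and triangles for array 2. The means of the macrophage and T cell lists were higher on both Hdc-/- arrays, at 5.72 and 5.76 against 5.39 and 5.58 for macrophages. Those of the 10 cytokine and enzyme genes and of the neutrophil list were too, at 3.92 and 3.95 against 3.87 and 3.79 for neutrophils. Single markers differed in direction, with 5 of 15 macrophage, 4 of 14 T and NK cell and 10 of 13 neutrophil markers negative. The mast cell mean of Hdc-/- array 1 stands alone at 6.59.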

How the data were processed

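The authors deposited log2 probe set values for 4 arrays, made with RMA; the submitters' processing notes list oligo and Affymetrix Power Tools too. Summarisation level, filters and array genome build are not given there. Values ran from 0.384 to 13.3 over 41345 probe sets, and 23521 had a single gene symbol in the platform annotation. A gene with several was represented by the brightest, giving 22180 genes. Genotypes were compared with limma 3.58.1 in R 4.3.3 (lmFit, eBayes, no covariate), with Benjamini-Hochberg adjustment over all genes at 0.05, and the fit was checked on simulated data. It had 2 residual and 3.62 prior degrees of freedom, and the number of arrays limits precision.

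The 10 genes, the lists and the tests were chosen with earlier results of these data known. Named by rule were all 10 genes, the 3 smallest p of each pathway list and the 2 smallest of cell type lists described gene by gene. Outside this rule some receptor chains, genes beside the cytokine genes, Odf1 and 3 gastric gland markers were named. So were genes singled out after their values were seen, with Cxcl5 set beside them. Of the adipocyte, squamous, hepatocyte, intestinal and pancreatic lists only medians or means over the list are given. Levels were set against each array's gene median. Alternatives left out dim genes or single arrays, averaged probe sets, renormalised or centred arrays, changed the prior, blocked on replicate number, took all probe sets as tests, or called genes by raw p and a log2 difference of at least 1. Same-numbered arrays did not deviate together (correlation of deviations -0.12), so the numbers were not taken as pairs.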

Additional observations from a re-analysis of the deposited data

How the results depend on the processing

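Limma called 0 of the measured cytokine and enzyme genes under all alternatives that kept any of them. With the dimmest 25% of genes left out only 5 remained (Il1b, Il17a, Tnf, Ptgs2 and Nos2), with a median difference of 0.22. Their levels were -0.97 in Hdc-/- and -1.15 in Hdc+/+ arrays from the gene median, taken anew over the genes kept. That median is higher without the dimmest genes, so these levels cannot be set beside those over all genes. With the dimmest 50% left out none remained, so no value exists. Averaging probe sets put the Hdc-/- level at -0.67. With 1 array left out the median difference ran from 0.10 to 0.18 (0.18 without Hdc+/+ array 1). Single differences changed sign for Il1a (-0.047 to 0.17), Il6 (-0.31 to 0.048), Il10 (-0.32 to 0.28), Il17a (-0.13 to 0.059) and Ptgs2 (-0.20 to 0.32), and those of Il1b, Il11, Tnf, Ifng and Nos2 stayed positive. Over all genes limma called 1 higher and 0 lower. The counts were 3 higher and 2 lower with a trended and robust prior, 1 higher and 6 lower with the replicate block, 107 and 372 at an unadjusted p with a log2 difference of at least 1, and 0 higher with every probe set tested. With 1 array left out they ran from 0 to 3 higher and from 0 to 158 lower, the highest of each without Hdc+/+ array 1. A block that crosses the replicate numbers, added after seeing the data, gave 0 higher and 0 lower. The medians of the interleukin 1, interferon gamma, epithelial response, macrophage and T cell lists kept their sign under all 12 alternatives, though with 1 array left out they came as near 0 as -0.0012, 0.12, -0.054, 0.15 and 0.11, in that order, while those of the other pathway lists changed sign under 1 to 5. The causes were not tested, beyond the fewer genes or arrays that some alternatives leave. Dimness close to that of retina and sperm probe sets and 2 arrays per genotype limit what these values can show.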

Other observations

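Several of the cytokine genes have relatives beside them in RefSeq's annotation of GRCm38.p6. Tnf neighbours Lta and Ltb, with 0 protein-coding genes between. Ltb, which encodes lymphotoxin beta, read 5.50 and 5.15 on Hdc-/- arrays 1 and 2, against 4.92 and 4.76 on Hdc+/+ arrays 1 and 2, a difference of 0.49 (SE 0.19) that did not pass (limma adjusted p = 0.581). Lta overlapped between the groups (-0.08, SE 0.18). Il17f, next to Il17a, read 4.26 and 3.68 on the Hdc-/- arrays, against 4.36 and 3.79 on the Hdc+/+ arrays, so array 1 of either genotype was the higher for both genes. Il22, which lies near Ifng with 1 protein-coding gene between, read 0.89 and 1.10 on the Hdc-/- arrays, against 1.00 and 0.73 on the Hdc+/+ arrays, among the lowest values of any gene.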
